A study of Mus musculus with 12 samples.

Results

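Expression of 9 genes of the LIF receptor and STAT3 pathway was followed in mouse pluripotent cells in which pyruvate carboxylase and the malic enzymes had been repressed. The 9 genes, Lifr, Il6st, Osmr, Jak1, Stat3, Socs3, Gbx2, Pim1 and Pim3, were taken by symbol from the 57180 genes of the RNA-seq tables. They were chosen as parts of a known pathway, with earlier results of these data known. All 9 were present and all 9 passed the filter of at least 10 counts over all libraries, which 25446 genes passed.

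The cells were male E14 ESCs with a doxycycline-inducible CRISPR interference system, a dCas9 fused to repressor domains that lowers transcription where a guide RNA places it. The Neg cells carried 4 scramble guide RNAs and the 3xKD cells carried guide RNAs against Pcx, Me1 and Me2. Both were sequenced as ESCs, kept in N2B27 medium with 2i and LIF, and as EpiLCs at day 2, grown with Activin A, Fgf2 and XAV939 and without LIF. Each of the 4 groups (Neg ESCs, 3xKD ESCs, Neg EpiLCs and 3xKD EpiLCs) had 3 libraries, 12 in all. All groups shared the parental line, which was derived from 1 picked clone, the drug selection that keeps the constructs and a Tet-On transactivator under the CAG promoter. The doxycycline that turns the repressor on is taken from the study's methods, because the labels do not name it. The labels do not say whether the 3 libraries of a group came from separate cultures, so p-values measure the spread between libraries. In bulk samples, a change in the share of cells that express a gene and a change per cell cannot be told apart.

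Leukaemia inhibitory factor (LIF) holds mouse ESCs in the naive state. It binds the LIF receptor, encoded by Lifr, which pairs with the shared signal chain gp130, encoded by Il6st, and the JAK kinases bound to both chains then phosphorylate the transcription factor STAT3. Osmr encodes the oncostatin M receptor chain, which also pairs with gp130. Socs3 is a direct STAT3 target whose product binds gp130 and JAK1 and shuts the signal down. Gbx2, a homeobox gene, and the serine/threonine kinase genes Pim1 and Pim3 are targets induced by LIF that favour ESC self-renewal.

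The upstream DNA of the genes is shown for the kinase genes Pim1 and Pim3 and the inhibitor gene Socs3, because these 3 of the 4 target genes among the 9 had higher means in 3xKD than in Neg cells in both states. The 250 bases before the start of each gene's most abundant transcript were read from GRCm39 with GENCODE vM39, for Pim1 at chr17:29709331-29709580 and for Pim3 at chr15:88745927-88746176, both on the plus strand. They were searched on both strands for the STAT motif TTCNNNGAA, which reads alike on either strand, and for the octamer ATGCAAAT bound by POU factors, a motif added after the sequences had been seen. For Socs3, whose window overlaps exons of its other transcripts, only the motif and 10 bases on each side are given. Capitals mark the motif.
Pim1: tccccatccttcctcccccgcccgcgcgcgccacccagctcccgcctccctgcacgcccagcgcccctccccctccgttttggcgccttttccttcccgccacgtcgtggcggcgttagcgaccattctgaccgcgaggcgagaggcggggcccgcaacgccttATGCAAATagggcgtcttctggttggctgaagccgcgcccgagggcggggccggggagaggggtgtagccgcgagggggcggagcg
Pim3: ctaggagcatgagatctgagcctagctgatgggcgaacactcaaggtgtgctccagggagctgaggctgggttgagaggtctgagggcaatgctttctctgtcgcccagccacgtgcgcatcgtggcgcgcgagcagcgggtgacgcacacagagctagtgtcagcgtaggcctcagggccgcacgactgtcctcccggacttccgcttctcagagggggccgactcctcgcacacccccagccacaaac
Socs3: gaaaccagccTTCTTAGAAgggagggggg
The STAT motif of Socs3 lay at chr11:117860338-117860346 on the minus strand, with its first base 223 bases before the start. Of the 9 windows, those of Socs3 and Osmr held the STAT motif, as did 6.75% of the 25400 windows of tested genes. The Osmr window lay before a short transcript that begins inside the gene. The starts used for Lifr, Il6st, Stat3 and Socs3 also lay inside their annotated genes. The octamer was found in the Pim1 window alone, with its first base 86 bases before the start, and in 1.53% of all windows. The GC content was 72.8% in the Pim1 window and 63.6% in the Pim3 window. A match is a string of letters and was not tested as a binding site.

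Libraries held between 11221023 and 19652197 estimated counts. Pcx, Me1 and Me2 were lower in 3xKD than in Neg cells in both states, with log2 fold changes between -1.14 and -0.89 in ESCs and between -1.05 and -0.98 in EpiLCs. The labelled states matched their markers: all 8 naive markers were lower and all 8 formative markers were higher in EpiLCs than in ESCs, in Neg and in 3xKD cells. Summed over 8 genes, naive markers were at 3685 to 3838 CPM (counts scaled to a common TMM-normalized library size) in Neg ESCs, 2898 to 2931 in 3xKD ESCs, 272 to 280 in Neg EpiLCs and 363 to 369 in 3xKD EpiLCs. Formative markers summed to 441 to 453, 413 to 430, 3719 to 4119 and 2173 to 2228 CPM in the same order. The 3xKD and Neg cells thus differed in the sums of both marker lists in each state, but single markers were mixed. By the log2 fold change of 3xKD against Neg, 1 of the 8 naive markers was above 0 in ESCs and 6 in EpiLCs. Of the 8 formative markers, 3 were above 0 in ESCs and 0 in EpiLCs. The part of these marker differences in the values of the 9 genes was not tested. Of the other cell types checked, primitive endoderm markers summed to 22.4 to 33.1 CPM over all libraries. Trophoblast markers summed to 46.8 to 64.9 CPM in ESCs, 9.46 to 11.5 CPM in Neg EpiLCs and 25.0 to 26.2 CPM in 3xKD EpiLCs. Of these 5 genes, Elf5 and Hand1 had means under 1 CPM. Tfap2c and Krt8 had means of 3.79 and 5.30 CPM in Neg EpiLCs and of 8.82 and 14.3 CPM in 3xKD EpiLCs. In Neg ESCs, Krt8 and Cdx2 had means of 5.79 and 2.86 CPM, and in 3xKD ESCs of 10.4 and 0.502 CPM. Fibroblast markers summed to 3.82 to 8.62 CPM, and 5 of those 7 genes were under 1 CPM.

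In ESCs, the repression of Pcx, Me1 and Me2 went with lower Lifr, Il6st and Gbx2 and with higher Socs3 and Pim3, while Stat3 did not pass the test. The calls of Il6st and Socs3 were lost with transcript-length offsets, which divide out the mean length of the transcripts that Salmon assigned. A gene was called where its absolute log2 fold change was above 0.58 and its p from edgeR's quasi-likelihood test, adjusted by Benjamini-Hochberg across the 25446 genes, was under 0.01. Of the 9 genes, 2 were called higher, against 8.5% of all genes tested, and 3 were called lower, against 6.76%. Of the 15032 genes of at least 1 CPM, 1962 were called higher and 1583 lower. Before the limit on the fold change, 7 of the 9 had an adjusted p under 0.01, against 31.6% of all genes tested and 7708 of the 15032 genes of at least 1 CPM. The median log2 fold change was 0.09 over the 9 genes and 0.03 over all genes tested.

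In EpiLCs, the same repression went with higher Stat3 and higher Socs3, Pim1 and Pim3. No gene of the 9 was called lower. The 4 called higher stood against 7.88% of all genes tested, and the 0 called lower against 5.35%. Of the 15032 genes of at least 1 CPM, 1844 were called higher and 1288 lower. Lifr, the 1 gene of the 9 below 0, had an adjusted p of 1.5e-05 in edgeR's test. Its log2 fold change of -0.36 was under the limit on size, and with transcript-length offsets the value was 0.16. DESeq2 also called 4 of the 9. With transcript-length offsets the call of Socs3 was lost (log2 fold change 0.47, adjusted p = 0.45 in edgeR's test). Before the limit on the fold change, 7 of the 9 had an adjusted p under 0.01 in edgeR's test, against 29.9% of all genes tested and 7375 of the 15032 genes of at least 1 CPM. The median log2 fold change was 0.49 over the 9 genes and 0.03 over all genes tested.

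**Figure D1:**
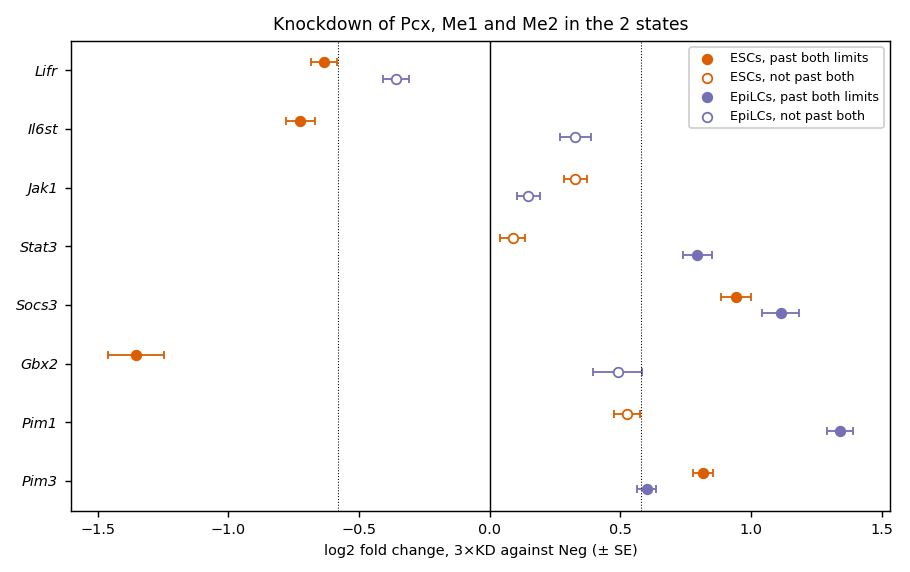
Log2 fold change of 3xKD against Neg (horizontal axis, ± SE from edgeR) for 8 genes in ESCs (orange) and EpiLCs (purple); filled points pass both limits and dotted lines mark 0.58 in each direction. Gbx2 and Il6st lie left of 0 in ESCs and right of 0 in EpiLCs, whereas Socs3, Pim1 and Pim3 lie right of 0 in both; Osmr is left out because it had at most 3 counts in a library.

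From ESCs to EpiLCs, Stat3, Socs3 and Il6st fell between 2.57- and 3.91-fold in Neg cells. These were the 3 genes of the 9 called lower, against 11% of all genes tested and 2514 of the 15032 genes of at least 1 CPM. Of the 9, 0 were called higher, against 9.78% and 2094. Of the 2 genes above 0, Pim3 had an adjusted p of 6.9e-05 in edgeR's test and a log2 fold change of 0.23, under the limit on size. Gbx2 had an adjusted p of 0.20 in the same test. DESeq2 also called 3 of the 9. Before the limit on the fold change, 6 of the 9 had an adjusted p under 0.01 in edgeR's test, against 35.7% of all genes tested and 8397 of the 15032 genes of at least 1 CPM. In 3xKD cells, Stat3 and Socs3 also fell, Il6st did not pass the limit on the fold change and Gbx2 rose. There, 1 of the 9 was called higher, against 9.42% of all genes tested and 2046 of the 15032 genes of at least 1 CPM. Of the 9, 2 were called lower, against 9.32% and 2149. Before the limit on the fold change, 6 had an adjusted p under 0.01, against 33.8% of all genes tested and 8029 of the 15032 genes of at least 1 CPM. The median log2 fold change was -0.40 in Neg and -0.20 in 3xKD cells over the 9 genes, and 0.01 in each over all genes tested. Each of the 4 groups serves in more than 1 of the comparisons of 2 groups, here and above, so the comparisons are not independent.

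**Figure D2:**
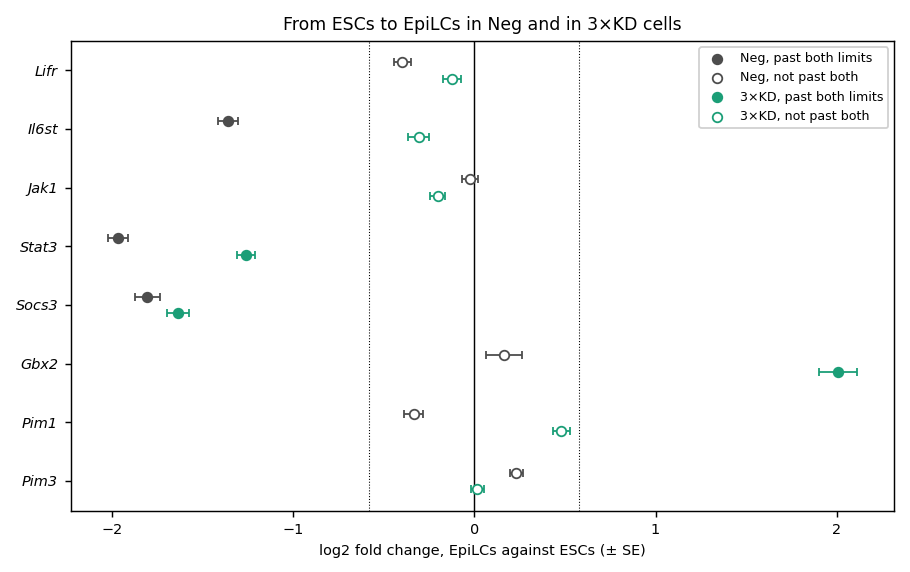
Log2 fold change of EpiLCs against ESCs (horizontal axis, ± SE from edgeR) for 8 genes in Neg (grey) and 3xKD cells (green); filled points pass both limits and dotted lines mark 0.58 in each direction. Stat3 and Socs3 lie far left of 0 in both lines, Il6st passes both limits in Neg cells alone and Gbx2 in 3xKD cells alone.

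The effect of the repression differed between EpiLCs and ESCs for 5 of the 9 genes by the test of the difference itself, at an adjusted p under 0.01 with no limit on size. The difference, EpiLCs minus ESCs, was above 0 for Il6st, Stat3, Gbx2 and Pim1. In that direction 4.76% of all genes tested and 1195 of the 15032 genes of at least 1 CPM were called. The difference was below 0 for Pim3, against 5.27% of all genes tested and 1336 of the 15032. The median difference was 0.63 over the 9 genes, the value of Osmr with its SE of 1.70, and close to 0 over all genes tested.

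**Figure D3:**
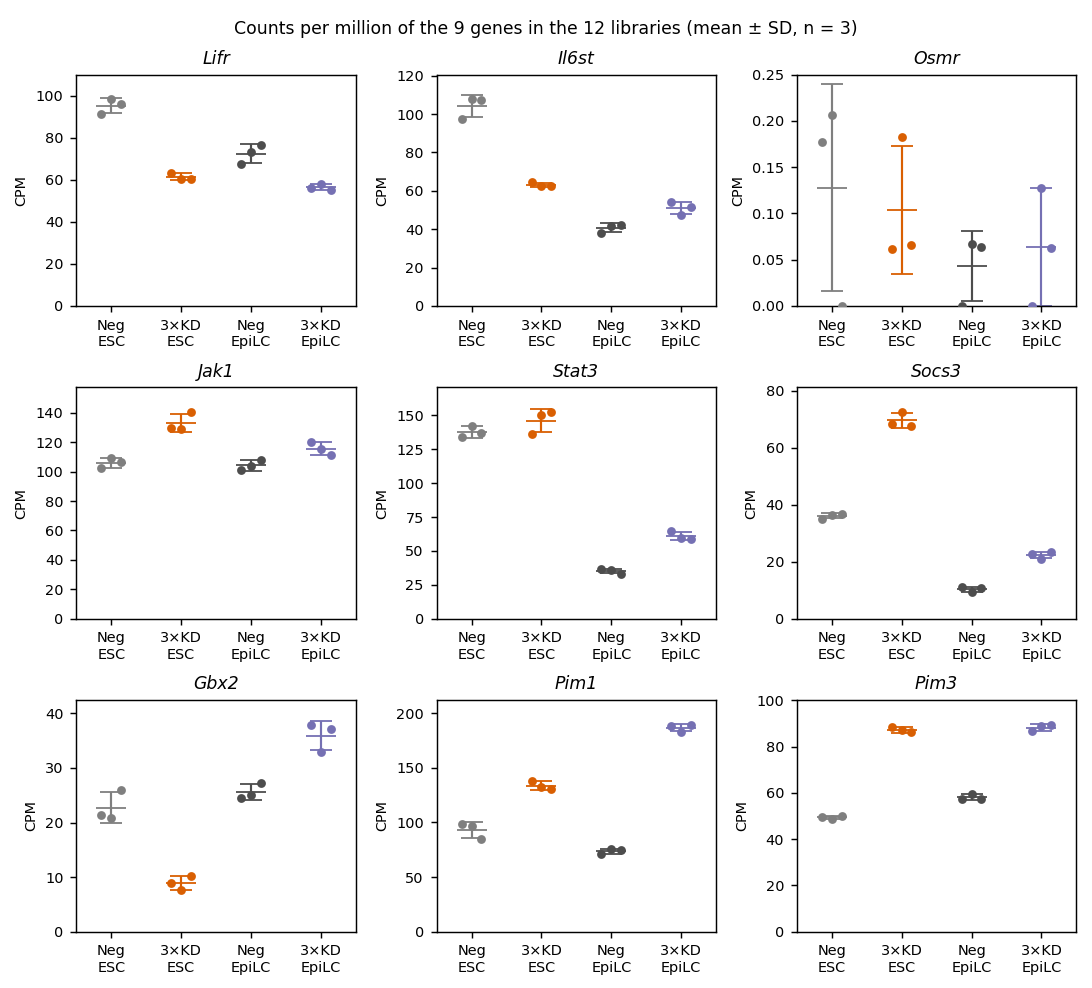
CPM (vertical axis, from 0, a scale of its own for each gene) of the 9 genes in the 12 libraries; points are libraries, wide bars the mean and error bars the SD of 3 libraries. Stat3 and Socs3 are low in both EpiLC groups, Gbx2 is lowest in 3xKD ESCs, and Pim1 is highest in 3xKD EpiLCs.

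Groups that do not overlap were common over all genes tested. With the repression, 25.2% of genes lay wholly higher and 23.8% wholly lower in ESCs, and 24.1% and 23.1% in EpiLCs. From ESCs to EpiLCs the shares were 26.2% and 25.5% in Neg cells, and 25.9% and 25.7% in 3xKD cells. The receptor genes came first in the pathway. Lifr (ENSMUSG00000054263, chr15:7120095-7226970) was at 91.4, 98.3 and 96.1 CPM in the Neg ESCs and at 63.3, 60.4 and 60.5 CPM in the 3xKD ESCs. All 3 of the 3xKD libraries lay below all 3 of the Neg libraries, a 1.55-fold fall (log2 fold change -0.63, SE 0.048, adjusted p = 1.7e-08). In EpiLCs it was at 67.4, 73.3 and 76.5 CPM in Neg and at 56.0, 58.0 and 55.3 CPM in 3xKD cells. The groups again did not overlap, but the log2 fold change of -0.36 (SE 0.049, adjusted p = 1.5e-05) was under the limit on size. The difference between the states was 0.28 (SE 0.069, adjusted p = 0.0103), just outside the threshold. From ESCs to EpiLCs, the log2 fold change of Lifr was -0.40 in Neg and -0.12 in 3xKD cells, neither past both limits. With transcript-length offsets the Neg value was -1.16 (adjusted p = 0.0024) and was called, and the value for the repression in EpiLCs turned to 0.16 (adjusted p = 0.69).

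Il6st (ENSMUSG00000021756, chr13:112600604-112646620) was at 97.3, 108 and 107 CPM in Neg ESCs, and at 64.4, 62.4 and 62.6 CPM in 3xKD ESCs. It was at 37.9, 41.9 and 42.2 CPM in Neg EpiLCs and at 54.0, 47.5 and 51.5 CPM in 3xKD EpiLCs. The 4 groups did not overlap, and the order of Neg and 3xKD was opposite in the 2 states. It fell 1.65-fold in ESCs (log2 fold change -0.72, SE 0.055, adjusted p = 1.7e-08), and in EpiLCs its log2 fold change was 0.33 (SE 0.058, adjusted p = 0.00023), under the limit on size. The difference of 1.05 (SE 0.080) had an adjusted p of 1.3e-07. From ESCs to EpiLCs, Il6st fell 2.57-fold in Neg cells (log2 fold change -1.36, SE 0.057, adjusted p = 3.7e-12), and in 3xKD cells its log2 fold change was -0.31 (SE 0.056). With transcript-length offsets the ESC log2 fold change was -0.26 (adjusted p = 0.34) and was not called, and the difference of 0.94 had an adjusted p of 0.050 and was not called. A transcript of 322 bases held between 32.4% and 67.8% of the gene's TPM in a library.

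Osmr (ENSMUSG00000022146, chr15:6843053-6904450), on the same chromosome as Lifr, was at or near 0 in every group. It had between 0 and 3 counts per library and 15 counts in all 12, so no fold change is given for it and a difference between groups was not detectable at this depth.

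The kinase and the transcription factor behaved differently from each other. Jak1 (ENSMUSG00000028530, chr4:101008838-101122487) was at 102, 109 and 107 CPM in Neg ESCs and at 130, 129 and 140 CPM in 3xKD ESCs. In EpiLCs it was at 101, 104 and 108 CPM in Neg and at 120, 115 and 111 CPM in 3xKD cells. The 3xKD libraries lay above the Neg libraries in both states. In ESCs edgeR's test gave a log2 fold change of 0.33 (SE 0.043, adjusted p = 1.0e-05), under the limit on size. In EpiLCs it gave 0.15 (SE 0.043, adjusted p = 0.012), outside both limits. The 2 groups of Neg libraries overlapped (log2 fold change -0.02, adjusted p = 0.72). Between Neg EpiLCs and Neg ESCs this was the smallest absolute log2 fold change of the genes other than Osmr, and its sign turned with upper-quartile factors (0.06).

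Stat3 (ENSMUSG00000004040, chr11:100775924-100830450) was at 134, 142 and 137 CPM in Neg ESCs and at 136, 150 and 152 CPM in 3xKD ESCs. These groups overlapped (log2 fold change 0.09, SE 0.049, adjusted p = 0.18). It was at 36.5, 35.6 and 33.4 CPM in Neg EpiLCs and at 64.7, 59.6 and 58.7 CPM in 3xKD EpiLCs. All 3 of the 3xKD EpiLC libraries were above the Neg EpiLC libraries and below every ESC library. Stat3 was 1.73-fold higher in 3xKD EpiLCs (log2 fold change 0.79, SE 0.055, adjusted p = 7.5e-09), and the difference between the states was 0.71 (SE 0.074, adjusted p = 4.8e-06). With transcript-length offsets the difference was 1.05 and its adjusted p was 0.066. The fall from ESCs to EpiLCs was 3.91-fold in Neg (log2 fold change -1.97, SE 0.054) and 2.40-fold in 3xKD cells (log2 fold change -1.26, SE 0.051). The gene overlaps Stat5a on the opposite strand, and the library kit was directional.

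Among the targets, Socs3 (ENSMUSG00000053113, chr11:117856905-117860898), the feedback inhibitor, was at 35.2, 36.5 and 36.9 CPM in Neg ESCs and at 68.6, 72.6 and 67.8 CPM in 3xKD ESCs. It was at 11.0, 9.26 and 10.7 CPM in Neg EpiLCs and at 22.6, 21.2 and 23.5 CPM in 3xKD EpiLCs. The 4 groups did not overlap, and 3xKD was above Neg in both states. Socs3 rose 1.92-fold in ESCs (log2 fold change 0.94, SE 0.058, adjusted p = 1.6e-09) and 2.16-fold in EpiLCs (log2 fold change 1.11, SE 0.070, adjusted p = 2.4e-09). The difference of these effects was 0.17 (SE 0.092, adjusted p = 0.26), which was not called. Socs3 fell 3.50-fold from ESCs to EpiLCs in Neg cells (log2 fold change -1.81, SE 0.068) and 3.11-fold in 3xKD cells (log2 fold change -1.64, SE 0.061). With transcript-length offsets the effect of the repression was 0.43 in ESCs (adjusted p = 0.46) and 0.47 in EpiLCs (adjusted p = 0.45). In the deposited TPM, a transcript of 246 bases held 67.0% of the TPM of Socs3 in the third Neg ESC library and 63.1% in the third Neg EpiLC library and 0% in the other 10, while the counts of these libraries lay beside those of their group.

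Gbx2 (ENSMUSG00000034486, chr1:89855678-89858920) was at 21.4, 20.8 and 26.0 CPM in Neg ESCs and at 8.97, 7.68 and 10.2 CPM in 3xKD ESCs. It was at 24.5, 25.1 and 27.2 CPM in Neg EpiLCs and at 37.9, 32.9 and 37.1 CPM in 3xKD EpiLCs. The 3xKD ESCs were the lowest and the 3xKD EpiLCs the highest of the 4 groups, and the Neg groups overlapped. Gbx2 fell 2.55-fold in ESCs (log2 fold change -1.35, SE 0.11, adjusted p = 3.1e-08), and in EpiLCs its log2 fold change was 0.49 (SE 0.094, adjusted p = 0.00045), under the limit on size. The difference of 1.84 (SE 0.14, adjusted p = 1.7e-07) was the largest of the 9 genes. From ESCs to EpiLCs it rose 4.02-fold in 3xKD cells (log2 fold change 2.01, SE 0.10), whereas in Neg cells the log2 fold change was 0.16 (adjusted p = 0.20).

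Pim1 (ENSMUSG00000024014, chr17:29709581-29715086) was at 98.1, 97.0 and 84.6 CPM in Neg ESCs and at 138, 132 and 131 CPM in 3xKD ESCs. It was at 71.3, 75.5 and 74.3 CPM in Neg EpiLCs and at 188, 183 and 189 CPM in 3xKD EpiLCs. No groups overlapped, and 3xKD EpiLCs were the highest. Pim1 rose 2.53-fold in EpiLCs (log2 fold change 1.34, SE 0.049, adjusted p = 6.6e-12), and in ESCs its log2 fold change was 0.52 (SE 0.049, adjusted p = 1.9e-07), under the limit on size. The difference was 0.82 (SE 0.069, adjusted p = 4.6e-07). Between the states, the log2 fold change was -0.34 in Neg cells and 0.48 in 3xKD cells, each under the limit on size.

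Pim3 (ENSMUSG00000035828, chr15:88746177-88749929) was at 49.6, 48.9 and 50.1 CPM in Neg ESCs and at 88.4, 87.1 and 86.2 CPM in 3xKD ESCs. It was at 57.3, 59.7 and 57.5 CPM in Neg EpiLCs and at 86.6, 88.7 and 89.4 CPM in 3xKD EpiLCs. The 3xKD groups overlapped each other and lay above both Neg groups. It rose 1.76-fold in ESCs (log2 fold change 0.82, SE 0.037, adjusted p = 4.9e-11) and 1.52-fold in EpiLCs (log2 fold change 0.60, SE 0.036, adjusted p = 1.4e-09), the latter just past the limit on size. The difference of -0.21 (SE 0.052) had an adjusted p of 0.0081 and lost its call in 17 of 21 alternative settings.

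Pim2, the remaining gene of the kinase family and not among the 9, had another pattern. It was at 25.8, 30.1 and 26.2 CPM in Neg ESCs, at 21.1, 21.3 and 20.7 CPM in 3xKD ESCs, at 777, 669 and 749 CPM in Neg EpiLCs and at 203, 212 and 207 CPM in 3xKD EpiLCs. It rose 26.8-fold from ESCs to EpiLCs in Neg cells (log2 fold change 4.74, SE 0.063) and 9.86-fold in 3xKD cells, and it fell 3.53-fold with the repression in EpiLCs (log2 fold change -1.82, SE 0.052, adjusted p = 7.3e-13). Pim1 and Pim3 thus rose with the repression in EpiLCs where Pim2 fell.

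**Figure D4:**
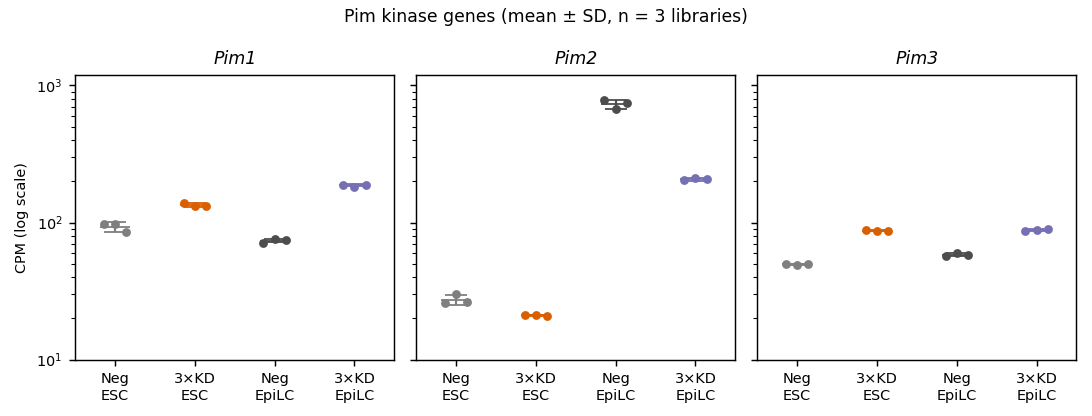
CPM (vertical axis, log scale shared by the panels) of Pim1, Pim2 and Pim3 in the 4 groups; points are libraries, wide bars the mean and error bars the SD of 3 libraries. In EpiLCs, 3xKD libraries lie above Neg libraries for Pim1 and Pim3 and below them for Pim2.

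Levels of different genes were compared per transcript length, in the deposited TPM, which move with how Salmon split reads among transcripts (Socs3 was at 11.5 to 32.4 TPM in Neg ESCs). In Neg ESCs Stat3 had the highest level, with a mean of 41.5 TPM and libraries from 39.5 to 42.9 TPM, and it did not overlap Pim1, which was at 24.6 to 31.7 TPM. Pim1, Il6st, Socs3, Lifr, Jak1 and Pim3 followed with means of 27.4, 22.4, 19.8, 18.0, 17.2 and 15.8 TPM, and each of these overlapped the next. Gbx2 came below them at 6.76 to 8.30 TPM, and Osmr was at most 0.030 TPM. In 3xKD ESCs, Stat3 was at 33.9 to 44.8 TPM and overlapped Pim1 at 30.9 to 35.6 TPM. Lifr at 5.99 to 12.3 TPM and Gbx2 at 2.41 to 3.28 TPM were the lowest beside Osmr there, and neither overlapped its neighbours.

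In Neg EpiLCs, Pim1 led at 22.3 to 31.9 TPM, ahead of Pim3 and Jak1 with means of 21.3 and 19.9 TPM, and each of these 3 overlapped the next. Stat3 stood below them at 9.78 to 16.6 TPM and overlapped Il6st, Gbx2, Lifr and Socs3, whose means were 11.4, 10.2, 9.38 and 7.80 TPM. In 3xKD EpiLCs, Pim1 was at 51.3 to 64.8 TPM, above all other genes of the 9 in every library. Pim3 and Stat3 followed with means of 30.3 and 25.2 TPM and overlapped. Stat3 was thus first of the 9 by mean TPM in both ESC groups, and Pim1 in both EpiLC groups.

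The other genes of the pathway were taken from lists of ligands, receptors, kinases and STATs, negative regulators and STAT3 targets. Of the other JAK kinases and STATs, 9 genes, 7 fell and 0 rose from ESCs to EpiLCs in Neg cells, with a median log2 fold change of -0.95 beside 0.01 over all genes tested. With the repression in EpiLCs, 4 of the 9 rose and 0 fell, with a median of 0.54 beside 0.03 over all genes. In ESCs 1 rose and 0 fell, with a median of 0.15 beside 0.03. In 3xKD cells, 4 fell and 0 rose between the states, and 2 fell with transcript-length offsets. The share of all genes called lies between 5.35% and 11% per direction in these comparisons, as given above for each. DESeq2 called 7 lower and 0 higher between the states in Neg cells, 3 lower and 0 higher in 3xKD cells, 4 higher and 0 lower with the repression in EpiLCs, and 1 higher and 0 lower in ESCs. By an unadjusted p under 0.05 in edgeR's test, 8 were lower and 0 higher between the states in each line, 7 were higher and 1 lower with the repression in EpiLCs, and 4 were higher and 1 lower in ESCs. By the same limit, 25.1% of all genes tested were higher and 24.5% lower between the states in Neg cells, 23.7% and 24.5% in 3xKD cells, 22.8% and 22% with the repression in EpiLCs, and 23.6% and 22.3% in ESCs.

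Jak3, the kinase that serves cytokine receptors with the common gamma chain, was at 31.4, 36.2 and 35.2 CPM in Neg ESCs and at 3.88, 3.96 and 3.10 CPM in Neg EpiLCs, a 9.41-fold fall (log2 fold change -3.23, SE 0.10). It was at 7.76, 9.53 and 7.68 CPM in 3xKD EpiLCs, 2.28-fold above Neg (log2 fold change 1.19, SE 0.12, adjusted p = 3.4e-07). Stat2, which acts in interferon signalling, rose 1.60-fold in ESCs and 2.10-fold in EpiLCs (log2 fold changes 0.68 and 1.07, SE 0.059 and 0.064). Stat5b, which acts downstream of growth hormone and cytokines, fell 2.32-fold from ESCs to EpiLCs in Neg cells and 1.76-fold in 3xKD cells. The latter fall had an adjusted p of 0.015 with transcript-length offsets.

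**Figure D5:**
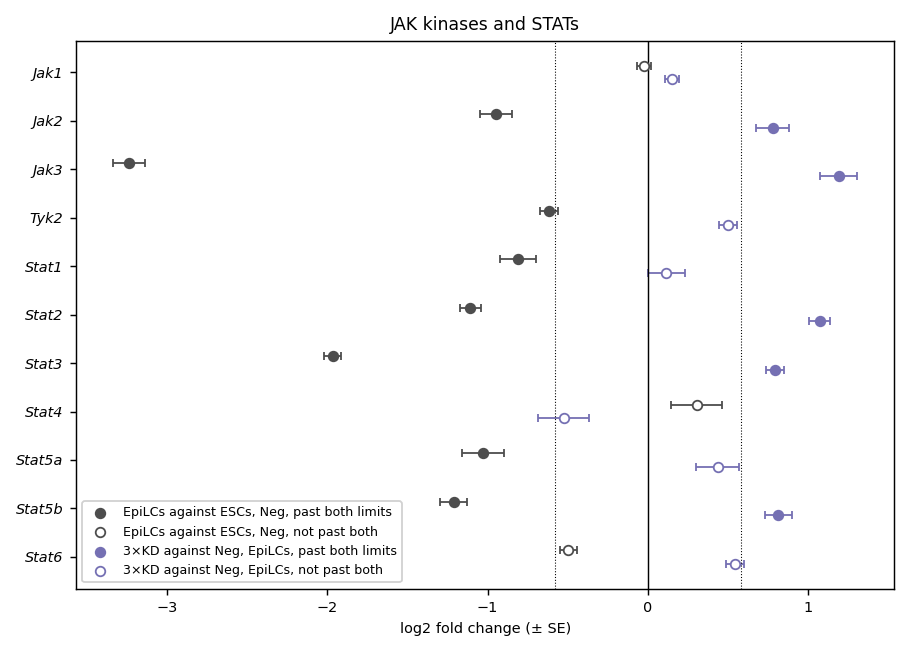
Log2 fold change (horizontal axis, ± SE from edgeR) of the 4 JAK kinases and 7 STATs for EpiLCs against ESCs in Neg cells (grey) and for 3xKD against Neg in EpiLCs (purple); filled points pass both limits and dotted lines mark 0.58 in each direction. Grey points lie left of 0 for all but Stat4 (Jak1, near 0, turned to 0.06 with upper-quartile factors), and purple points lie right of 0 for all but Stat4; both sets rest on the same Neg EpiLC libraries.

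Of the 8 ligand genes, 7 were tested. Lif itself was at 9.40, 10.1 and 9.64 CPM in Neg ESCs, at 9.46, 8.78 and 10.1 CPM in 3xKD ESCs, at 5.48, 6.91 and 4.80 CPM in Neg EpiLCs and at 4.28, 6.39 and 5.37 CPM in 3xKD EpiLCs. It fell 1.70-fold between the states in Neg and 1.76-fold in 3xKD cells, and the repression gave log2 fold changes of -0.04 in ESCs and -0.10 in EpiLCs, neither called. The fall was not called with transcript-length offsets (adjusted p = 0.21 in Neg and 0.66 in 3xKD cells). Clcf1, a ligand of the CNTF receptor, had a mean of 0.754 CPM in Neg and 2.54 CPM in 3xKD ESCs, and of 0.872 and 1.91 CPM in EpiLCs. It was called higher with the repression in both states, but with transcript-length offsets its adjusted p was 0.027 in ESCs and 0.21 in EpiLCs, and DESeq2 did not call it in EpiLCs. Osm, which encodes oncostatin M, fell from 2.69 CPM in Neg ESCs to 1.04 CPM in 3xKD ESCs and 0.149 CPM in Neg EpiLCs. Its fall in ESCs lost its call with transcript-length offsets (adjusted p = 0.088), without the second Neg ESC library and without the second 3xKD ESC library.

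Receptor chains that pair with gp130 moved in opposite directions. Il6ra, the interleukin 6 receptor chain, was at 16.4, 16.5 and 15.6 CPM in Neg ESCs and at 5.90, 5.06 and 5.36 CPM in 3xKD ESCs, a 2.97-fold fall (log2 fold change -1.57, SE 0.11, adjusted p = 6.3e-09). In EpiLCs it was at 6.10, 6.98 and 6.57 CPM in Neg and at 5.77, 4.80 and 4.50 CPM in 3xKD cells. Cntfr, the CNTF receptor chain, was at 7.27, 5.85 and 5.91 CPM in Neg ESCs, at 14.6, 16.0 and 15.4 CPM in 3xKD ESCs, at 98.3, 92.8 and 102 CPM in Neg EpiLCs and at 37.0, 38.0 and 38.8 CPM in 3xKD EpiLCs. It thus rose 2.45-fold with the repression in ESCs and fell 2.57-fold in EpiLCs, and the difference of -2.66 (SE 0.099) had an adjusted p of 1.0e-10. Il11ra1, the interleukin 11 receptor chain, rose 1.79-fold in EpiLCs (log2 fold change 0.84, SE 0.20), a call lost without the third Neg EpiLC or the second 3xKD EpiLC library and with transcript-length offsets (adjusted p = 0.020). Over the 6 receptor genes of the list, 2 rose and 1 fell in ESCs, against 8.5% and 6.76% of all genes tested, and 1 rose and 1 fell in EpiLCs, against 7.88% and 5.35%.

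The 15 negative regulators mostly stayed within the limits. With the repression, 1 rose and 2 fell in ESCs, against 8.5% and 6.76% of all genes tested. In EpiLCs 0 rose and 0 fell, by edgeR and by DESeq2, against 7.88% and 5.35% of all genes in edgeR's test. There, 9 had an adjusted p under 0.01 in edgeR's test at smaller folds. Past the same limit were 29.9% of all genes tested and 7375 of the 15032 genes of at least 1 CPM. By an unadjusted p under 0.05, 3 were above and 8 below 0, against 22.8% and 22% of all genes tested. Socs2, which restrains growth hormone signals, fell 2.07-fold in ESCs (log2 fold change -1.05, SE 0.056, adjusted p = 2.9e-10), from 57.8, 60.0 and 60.7 to 29.1, 30.4 and 27.0 CPM. Socs1, an inhibitor of JAK kinases, rose 1.83-fold in ESCs (log2 fold change 0.87, SE 0.17, adjusted p = 0.00049), from a mean of 3.00 to 5.48 CPM. The Socs2 and Socs3 values of 3xKD ESCs thus lay on opposite sides of those of Neg ESCs. Ptpn6, a tyrosine phosphatase, fell 5.31-fold between the states in Neg and 4.04-fold in 3xKD cells. Pias2, a SUMO ligase of a family that binds STATs, fell 1.84-fold and 1.67-fold. Pias1, of the same family, went the other way, with means of 51.3 CPM in Neg ESCs and 83.2 CPM in Neg EpiLCs. Socs2 rose between the states in 3xKD cells (log2 fold change 0.76, SE 0.056). Of the 15, 2 rose and 2 fell between the states in Neg cells, against 9.78% and 11% of all genes tested. In 3xKD cells 1 rose and 2 fell, against 9.42% and 9.32%.

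Of 15 other genes described as STAT3 targets, 5 rose and 3 fell with the repression in ESCs, against 8.5% and 6.76% of all genes tested, and 5 rose and 2 fell in EpiLCs, against 7.88% and 5.35%. With transcript-length offsets, 2 rose and 3 fell in ESCs and 3 rose and 2 fell in EpiLCs. Their median log2 fold changes were 0.05 in ESCs and 0.28 in EpiLCs, beside 0.03 over all genes tested in each. Ier3, an early response gene, was at 7.80, 8.53 and 7.34 CPM in Neg and at 30.0, 28.3 and 30.1 CPM in 3xKD ESCs, a 3.74-fold rise, and it rose 4.15-fold in EpiLCs (log2 fold change 2.05, SE 0.14). Myc was at 3.10, 4.13 and 5.71 CPM in Neg and at 1.29, 0.976 and 0.849 CPM in 3xKD ESCs, a 4.29-fold fall (log2 fold change -2.10, SE 0.21). In EpiLCs Myc was at 52.7 to 57.0 CPM in Neg and at 64.0 to 67.9 CPM in 3xKD cells, and the 3xKD groups differed 63.5-fold between the states. Klf4, a naive transcription factor gene, fell 25.8-fold from ESCs to EpiLCs in Neg cells (log2 fold change -4.69, SE 0.055). Bcl3, an atypical inhibitor of NF-kB, fell 10.2-fold between the states in 3xKD cells (log2 fold change -3.35, SE 0.12). Between the states, 5 of the 15 rose and 5 fell in Neg cells, against 9.78% and 11% of all genes tested, and 4 rose and 4 fell in 3xKD cells, against 9.42% and 9.32%.

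For each member, the genes with the most similar pattern were found by Pearson's r of log2 CPM over the 12 libraries, among the 9634 genes whose mean reached 10 CPM. The 12 libraries fall into 4 groups, so r describes the order of the groups. Stat3 was closest to Ddah1 (r = 0.998) and Bcat1 (r = 0.996), and Socs3 to St14 (r = 0.998) and Slc25a39 (r = 0.997). Pim3 was closest to Ddit3 and Aplp1 (r = 0.996 and 0.995), and Pim1 to Ptms and Sh3bp4 (r = 0.987 and 0.986). Gbx2 was closest to Gm50358 and Scamp1 (r = 0.985 and 0.985). Lifr was closest to Naa35 and Washc5 (r = 0.987 and 0.986), Il6st to Gpnmb and Ttc39b (r = 0.988 and 0.987), and Jak1 to Cdc42bpg and Pgrmc1 (r = 0.978 and 0.967). No gene is given for Osmr, whose counts were too few.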

How the data were processed

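Total RNA was depleted of ribosomal RNA and sequenced as directional single-end libraries, by the study's methods and the extraction protocol, although the molecule field of the labels gives polyadenylated RNA. Libraries were grouped by title, since the cell type field gives 1 state to all libraries of a line. The authors trimmed reads with Trim Galore 0.6.7, mapped them with STAR 2.7.9a to GRCm39 with Ensembl annotation and quantified transcripts with Salmon 1.10.1. The deposited tables hold each transcript's estimated counts, without normalization, and its TPM, in which the authors' quantifier divided by effective length and scaled to the library.

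Here each gene's estimated counts were added up and rounded. For genes reaching 10 counts across the libraries, TMM factors were computed and edgeR 4.0.16 (R 4.3.3) was run with its quasi-likelihood test on the 4 group means, all 12 libraries sharing 1 estimate of the spread. A call needed an absolute log2 fold change above 0.58 and an adjusted p (Benjamini-Hochberg, across the 25446 genes) under 0.01, except for the difference between states, where no limit on size was set. The SE is the log2 fold change divided by the square root of F. Log2 CPM used a prior count of 2. Depth was 11221023 to 19652197 counts per library. The SE reflects the spread between libraries within groups, as estimated over all 12 libraries together, and not that of the 3 libraries of 1 group.

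Settings were changed 1 at a time: DESeq2 1.42.0 in place of edgeR, other scaling (upper-quartile, RLE, or none beyond library size), other filters (none, or filterByExpr), offsets for transcript length, a block for the replicate number, robust estimation, a fit of just the groups being compared, other limits, and leaving out every library once. The 9 genes and the pathway lists were chosen with earlier results of these data known. Named beside the 9 were Lif, the up to 2 largest called genes of each list in each comparison of 2 groups whose mean reached 1 CPM, and the 2 genes most alike to each of the 9. Others are examples chosen after their values were seen. Sequences and positions are from GRCm39 with GENCODE vM39, which held 99.34% of the genes tested. Protein sequences were not used here.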

Additional observations from a re-analysis of the deposited data

Results flagged for a closer look

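The effect of the repression differed between EpiLCs and ESCs by the test of the difference itself for 5 of the 9 genes. The values are the log2 fold change of 3xKD against Neg in EpiLCs minus that in ESCs, from edgeR. They were 1.84 for Gbx2, 1.05 for Il6st, 0.82 for Pim1, 0.71 for Stat3 and -0.21 for Pim3. Gbx2 and Il6st were below Neg in all 3 of the 3xKD ESC libraries and above Neg in all 3 of the 3xKD EpiLC libraries. With each state taken alone, 23.8% of all genes tested lay wholly lower in ESCs and 24.1% wholly higher in EpiLCs. The naive markers, as a sum, were lower in 3xKD ESCs and higher in 3xKD EpiLCs than in the Neg libraries of the same state. Singly they did not all follow the sum. In ESCs, 0 of the 8 were called higher and 4 lower, against 8.5% and 6.76% of all genes tested. In EpiLCs, 3 were called higher and 1 lower, against 7.88% and 5.35%. The part of the naive markers in the differences of the 9 genes was not tested.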

How the results depend on the processing

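No value of the 9 genes past both limits changed direction in any alternative. With transcript-length offsets, 3 genes instead of 5 were called in ESCs and 2 instead of 5 for the difference between states, while over all genes the calls went from 3885 to 2789 and from 2553 to 731. In EpiLCs the call of Socs3 was lost with these offsets, while over all genes the calls went from 3367 to 2355. With no limit on the fold change, 7 genes instead of 5 were called in ESCs, 7 instead of 4 in EpiLCs, 6 instead of 3 from Neg ESCs to Neg EpiLCs and 6 instead of 3 in 3xKD cells, beside 8048, 7610, 9081 and 8602 of the 25446 genes tested. Of the 15032 genes of at least 1 CPM, 7708, 7375, 8397 and 8029 passed in these comparisons. When any 1 library was left out, the calls stayed at 5 in ESCs, 4 in EpiLCs, 3 and 3 between the states, and 4 to 5 for the difference. Correlations of same-numbered libraries lay between -0.13 and 0.10. Without differently numbered pairs beside them, they cannot show whether the libraries were paired. With the replicate number as a block 5, 4, 3, 3 and 4 of the 9 were called in the same order, Pim3 (adjusted p = 0.018) being the call lost. The Lifr difference passed the threshold in 8 of 21 alternatives. With transcript-length offsets, Lifr gave -1.16 from Neg ESCs to Neg EpiLCs (adjusted p = 0.0024) and 0.16 with the repression in EpiLCs, and Pim1 gave 0.59 between the states in 3xKD cells, past both limits; the shares of short transcripts of Lifr lay between 0% and 60.1% of its TPM. The median of genes of at least 1 CPM lay between -0.05 and 0.07 on the log2 scale under other scalings. Depth limits Osmr, with at most 3 counts in a library.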
